A study of Mus musculus with 4 samples.

Results

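The peroxiredoxins are the 6 genes Prdx1, Prdx2, Prdx3, Prdx4, Prdx5 and Prdx6, and every non-control probe that the array annotation assigns to 1 of these names was taken, which gave 12 of 39429 probes, for 6 of 30175 gene names. Prdx6 had 4 probes, Prdx1, Prdx4 and Prdx5 had 2 each, and Prdx2 and Prdx3 had 1 each. RNA came from NIH-3T3:Per2-Luc cells, a mouse embryonic fibroblast line that carries a luciferase gene driven by the *Per2* promoter, and was hybridized to 4 one-color Agilent arrays on 1 slide. The control array held RNA of cells that received fresh medium with 0 mM H2O2 and is labelled 4 h. The other arrays held RNA of cells taken at 4 h, at 20 h and at 32 h from a cOS-pulse, an exposure to 5 mM H2O2 that lasted 10 min. All 4 arrays share the reporter line, a clock model in culture. Each condition had 1 array, so the number of arrays limits the precision, no test was possible and no p-value is given. Since the only control is labelled 4 h, the effect of the cOS-pulse and that of time in culture cannot be told apart at 20 h and 32 h.

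Peroxiredoxins reduce hydrogen peroxide with a cysteine in their active site, and their abundance makes them a main sink for peroxide in mammalian cells. In the 2-Cys members, Prdx1 to Prdx5, a second cysteine closes a disulfide. In Prdx1, Prdx2, Prdx3 and Prdx5, thioredoxin opens it again with electrons from thioredoxin reductase and NADPH. Prdx6 is the 1-Cys member, which is recycled with glutathione and the glutathione transferase Gstp1, and which also has phospholipase A2 activity. Excess peroxide overoxidizes the active cysteine of the typical 2-Cys members, and sulfiredoxin repairs it. The members differ in their place in the cell: Prdx1 and Prdx2 are found mainly in the cytosol, Prdx3 in mitochondria, Prdx4 in the endoplasmic reticulum, Prdx5 in mitochondria, peroxisomes and the cytosol, and Prdx6 mainly in the cytosol.

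The probes are DNA strands of 60 bases, and their sequences, printed 5′ to 3′, show which piece of each transcript was read. The annotation of the arrays places them on mouse build mm9. The Prdx1 probe A_55_P2147427 (chr4:116371818-116371877, plus strand) covers the end of the reading frame, printed up to its stop codon in capitals. The Prdx6 probe A_55_P2176731 (chr1:163173715-163173774, minus strand) and the Prdx5 probe A_55_P1979463 (chr19:6981371-6981430, minus strand) each hold an open reading frame along their whole length. In 4 probes the polyadenylation hexamer AATAAA, the signal for cutting the end of the messenger, is present (capitals, in windows of 30 bases). They are A_55_P1979432 for Prdx2 (chr8:87498153-87498212, plus strand), A_55_P1979457 for Prdx4 (chrX:151758471-151758530, minus strand), A_55_P2033255 for Prdx5 (chr19:6981198-6981256, minus strand) and A_55_P2103561 for Prdx6 (chr1:163171138-163171197, minus strand). The 2 last windows come from the probes that lie furthest downstream in their gene, A_66_P119421 for Prdx1 (chr4:116372422-116372481, plus strand) and A_52_P388359 for Prdx6 (chr1:163170713-163170772, minus strand).
Prdx1 A_55_P2147427: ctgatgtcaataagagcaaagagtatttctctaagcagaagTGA
Prdx6 A_55_P2176731: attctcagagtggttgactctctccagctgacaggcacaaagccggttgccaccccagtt
Prdx5 A_55_P1979463: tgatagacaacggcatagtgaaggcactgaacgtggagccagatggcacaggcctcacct
Prdx2 A_55_P1979432: ctataggaaaccAATAAAgtattagggaca
Prdx4 A_55_P1979457: tttggaccttctcAATAAAggtcattgtgt
Prdx5 A_55_P2033255: ccatatttctgcAATAAAcagtttaatttg
Prdx6 A_55_P2103561: tgaggttcaacaAATAAAatcctgatcaga
Prdx1 A_66_P119421: aggatctacttttctagtgctggttttata
Prdx6 A_52_P388359: ggttgagaaccactaatggttaggtagtct

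The hexamer was present in 4 of the 12 member probes (33.3%) and in 12.6% of all 39429 probes. The 3 probes with no letters shown above are A_51_P100828 for Prdx3 (chr19:60940148-60940207, minus strand), which is spotted 10 times on each array, A_55_P2058340 for Prdx4 (chrX:151771909-151771968, minus strand) and A_55_P2176729 for Prdx6 (chr1:163171791-163171850, minus strand). The gene table used here lists 5 further Prdx entries outside the members, 4 of them pseudogenes and 1 the gene Prdx6b, and a probe that also matches such a copy could read both. The accessions of A_55_P2176731 name both Prdx6 and Prdx6b. None of the 4 arrays measured the separate Prdx6b probe well above background.

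Signals are given as multiples of the 75th percentile of all probes on the same array, so a value of 1 is that percentile itself, and values of different probes are not comparable with each other. The error of a log2 ratio is the error that the scanner software gives for the spots, about 0.20 for all but the dimmest probes. It covers the spot and not the cells. Because it is nearly the same for every bright probe, it serves as a limit near 0.20 and is not a spread measured between spots. In RNA of a whole culture, fewer cells with a messenger and less of it per cell cannot be told apart. With this scaling, 2 of the 12 member probes were at least 2-fold higher at 4 h than in the control, against 11.2% of the 23813 probes with a ratio, and none was at least 2-fold lower, against 8.18%. At a threshold of 1.5-fold, 6 member probes were higher, against 24.7% of all probes. These 6 were both probes of Prdx1 and all 4 of Prdx6, while none of the 6 probes of Prdx2, Prdx3, Prdx4 and Prdx5 passed 1.5-fold upwards, and no member probe passed it downwards, as 16.4% of all probes did. The Prdx6 probe A_52_P388359, counted in both the 2 and the 6, was well above background at 4 h alone. Its ratio is therefore a bound, and it entered these counts only through its signal at 4 h. The 6 became 5 under quantile scaling, 3 under median scaling and 2 under spike-in scaling, and under the last 2 of these the Prdx3 probe passed 1.5-fold downwards.

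**Figure D1:**
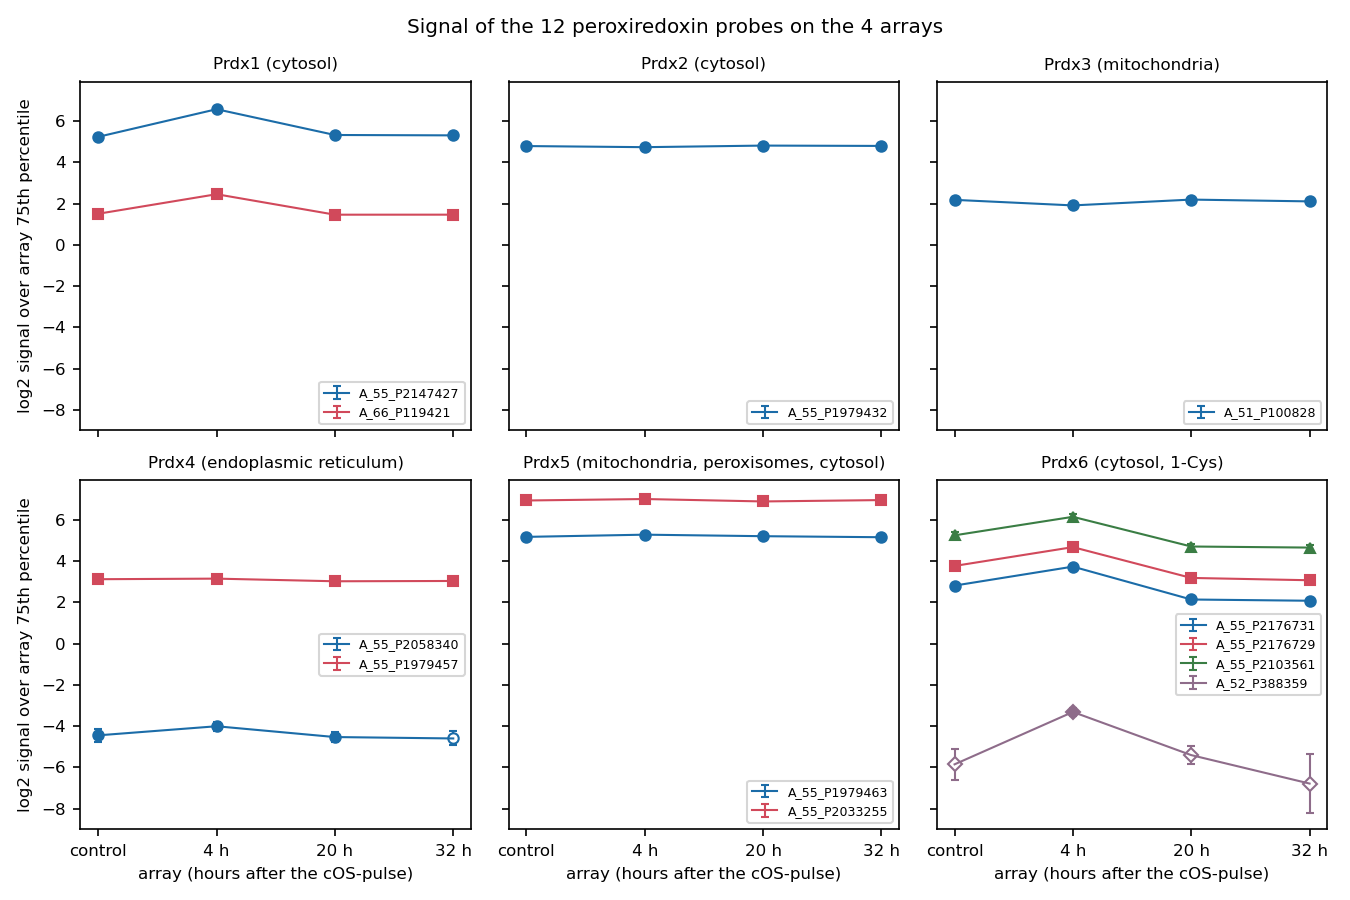
Signal of each of the 12 probes on the 4 arrays, by gene, as log2 of the multiple of the array's 75th percentile. Bars are the software's spot error, and open symbols mark a probe that was not well above background on that array; the Prdx1 and Prdx6 probes peak at 4 h, and the 3 bright Prdx6 probes end below their control value.

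Prdx1, the most widely studied cytosolic 2-Cys enzyme, was highest at 4 h with both probes. The signal of A_55_P2147427 was 37.7 in the control, 95.2 at 4 h, 40.0 at 20 h and 39.5 at 32 h. The array at 4 h stood above the other 3, and those 3 differed by at most 0.089 on the log2 scale, less than the spot error. The ratio at 4 h over the control was 2.53-fold, or 1.34 ± 0.20 (spot error) on the log2 scale. The second probe, A_66_P119421, which lies 604 bases further along the transcript, had signals of 2.84 in the control, 5.48 at 4 h, 2.76 at 20 h and 2.76 at 32 h. It kept the same order of 4 h above the rest, with a ratio of 1.93-fold, or 0.95 ± 0.20, so the 2 probes of this gene lie on either side of the 2-fold threshold. Of the probes with a measured ratio at 4 h, 3.96% were at least as high as the first Prdx1 probe and 9.64% at least as high as the second.

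Prdx2, the other mainly cytosolic 2-Cys enzyme, had a log2 range of 0.08 over the 4 arrays with this scaling, and of 0.19 to 0.69 with the 5 others. Its signal was 27.6 in the control, 26.6 at 4 h, 28.1 at 20 h and 27.7 at 32 h, and no neighbours in this order differed beyond the spot error. Since both probes are read on the same arrays, the Prdx1 ratio can be set against the Prdx2 ratio with no scaling between arrays. The log2 ratio of Prdx1 (brightest probe) exceeded that of Prdx2 by 1.39 ± 0.29 at 4 h, or 2.62-fold, and by 0.07 ± 0.29 at 20 h and 0.06 ± 0.29 at 32 h. The second Prdx1 probe, with a log2 ratio of 0.95 at 4 h, had a smaller gap to Prdx2 there. The difference between these 2 cytosolic enzymes was thus beyond the spot error at 4 h and within it later.

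Prdx6, the 1-Cys enzyme, was the member that differed from the control beyond the spot error at every time point. The brightest probe, A_55_P2103561, had signals of 37.9 in the control, 70.6 at 4 h, 26.0 at 20 h and 25.1 at 32 h. The probe A_55_P2176729 had 13.6, 25.5, 9.06 and 8.38 in the same order, and A_55_P2176731, the probe printed in full above, had 7.01, 13.2, 4.39 and 4.21. All 3 probes gave one order, with 4 h highest, the control next and the late arrays lowest, and only the difference between 20 h and 32 h lay within the spot error. At 4 h the ratios over the control were 1.86-fold, 1.88-fold and 1.89-fold, with log2 values of 0.90, 0.91 and 0.92. At 20 h the log2 ratios were -0.54, -0.58 and -0.67, and at 32 h they were -0.59, -0.69 and -0.73, each ± 0.20. In fold terms the 3 probes were 1.51-fold, 1.62-fold and 1.66-fold lower than the control at 32 h. They cover 3 places in the transcript, of which the first and the last start 852 bases apart, and their ratios at any time point differed by less than the spot error of one.

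The lower level of Prdx6 at the late time points did not reach 2-fold but lay towards the end of the distribution. Of the probes with a measured ratio, 93.5% to 95.7% were at least as high as the 3 Prdx6 probes at 20 h and 94.9% to 96.9% at 32 h. At least 1.5-fold lower values were given by 1 member probe at 20 h, against 7.69% of all probes with a ratio, and by 3 member probes at 32 h, against 7.15%. All of these were Prdx6 probes, which share a transcript and are not independent. These counts depend on the scaling. At 32 h the 3 probes were at -0.44 to -0.58 under spike-in scaling and -0.42 to -0.56 without scaling, short of 1.5-fold. The probe past 1.5-fold at 20 h, A_55_P2176731, was short of it under median scaling (-0.57), spike-in scaling (-0.47) and without scaling (-0.34). No member probe was at least 2-fold higher at 20 h, where 1.37% of all probes were, or at 32 h, where 2.07% were. None was at least 2-fold lower either, against 3.35% and 2.59%.

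The fourth Prdx6 probe, A_52_P388359, starts 425 bases downstream of the probe that holds the hexamer AATAAA. Its signal was 0.0173 in the control, 0.101 at 4 h, 0.0236 at 20 h and 0.00909 at 32 h, and it was well above background at 4 h alone. Against the lowest detected signal of the control array it was at least 2.73-fold higher at 4 h. For 20 h and 32 h there is no ratio over the control, because none of the 3 other arrays measured this probe. It is the second of the 2 member probes past 2-fold at 4 h.

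**Figure D2:**
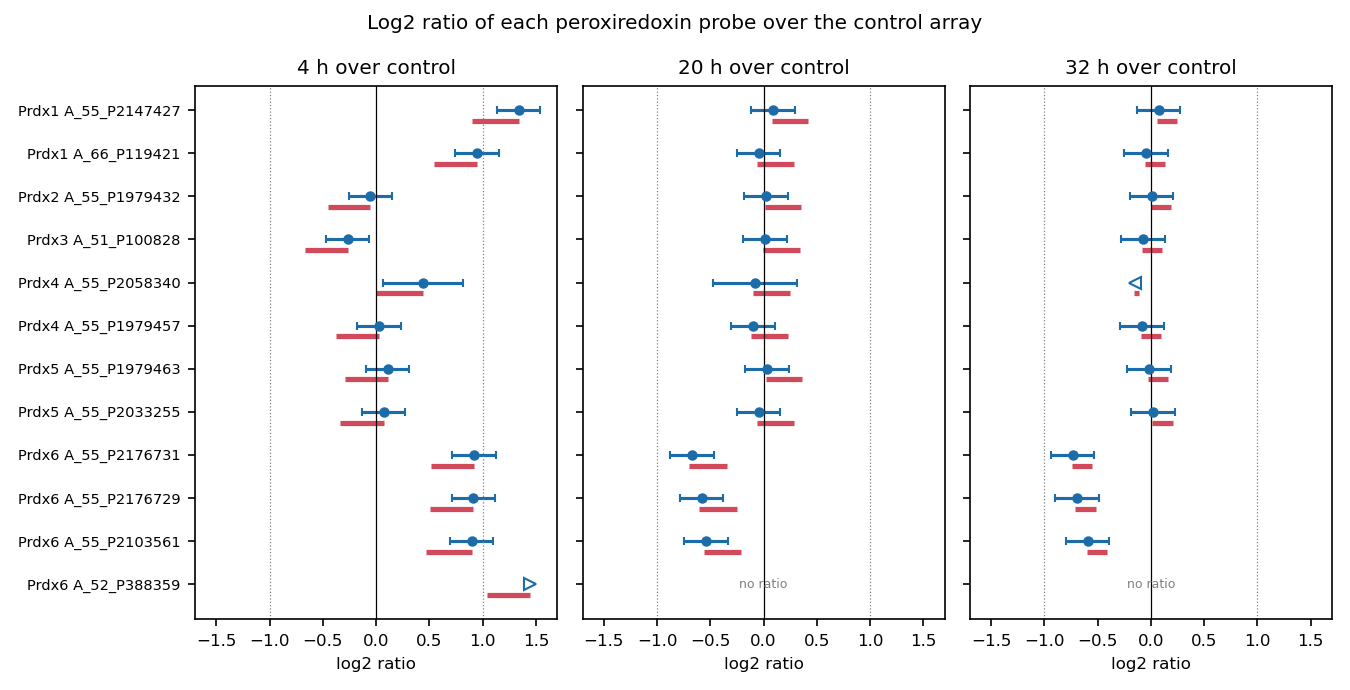
Log2 ratio over the control array for each probe at 4 h, 20 h and 32 h. Points with bars are measured ratios with the spot error, open triangles are bounds that point to the larger change, red bars give the range over the 5 other scalings and the one used, and dotted lines mark 2-fold; only the 3 bright Prdx6 probes lie left of 0 by more than their error at 20 h and 32 h.

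Prdx3, the mitochondrial 2-Cys enzyme, had the lowest ratio at 4 h. Its signal was 4.54 in the control, 3.76 at 4 h, 4.58 at 20 h and 4.31 at 32 h. The 4 h array was the lowest, at 1.21-fold below the control. Because this probe is spotted 10 times, the spread between spots can be given, which describes the slide and not the cells. The 10 spots ranged from 4.31 to 4.70 in the control and from 3.52 to 3.90 at 4 h, so the spots of these arrays did not overlap. Paired by spot number in the file, the log2 ratio at 4 h was -0.27 with an SD of 0.025 between spots and lay below 0 in 10 of 10 spots. At 20 h it was 0.01 with an SD of 0.035, below 0 in 3 of 10 spots. At 32 h it was -0.07 with an SD of 0.046, again below 0 in 10 of 10 spots. The spots of an array share its scaling, so their agreement does not settle the direction. At 32 h the ratio was 0.08 under spike-in scaling and 0.10 without scaling. The difference between Prdx3 and the brightest Prdx1 probe within the arrays was 1.61 ± 0.29 on the log2 scale at 4 h. That was the widest gap among the 6 genes by their brightest probes, and the second Prdx1 probe had a smaller one.

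Prdx5, which works in mitochondria, peroxisomes and the cytosol, was level over the arrays with both probes. The brightest, A_55_P2033255, had signals of 122 in the control, 128 at 4 h, 118 at 20 h and 124 at 32 h. The coding probe A_55_P1979463 had signals of 36.0, 38.7, 36.8 and 35.6 in the same order. No neighbours in the order of either probe differed beyond the spot error. The log2 ratios at 4 h were 0.07 and 0.11, and both turned negative under the 5 other scalings, down to -0.34 and -0.30.

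Prdx4, the enzyme of the endoplasmic reticulum, was read by 2 probes that lie 13438 bases apart in the genome. The probe at the end of the messenger, A_55_P1979457, had signals of 8.68 in the control, 8.85 at 4 h, 8.10 at 20 h and 8.18 at 32 h, which differ by less than the spot error. Its log2 ratio at 4 h, 0.03, turned negative under the 5 other scalings, down to -0.38. The other probe, A_55_P2058340, is annotated to an Ensembl transcript with no RefSeq accession and was dim, with 0.0459 in the control, 0.0623 at 4 h, 0.0433 at 20 h and 0.0414 at 32 h. It was not well above background at 32 h, where the control was at least 1.11-fold higher. Its ratio at 4 h was 0.44 ± 0.37, just beyond the spot error, and within it under each of the 5 other scalings, at 0.0029 to 0.32.

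**Figure D3:**
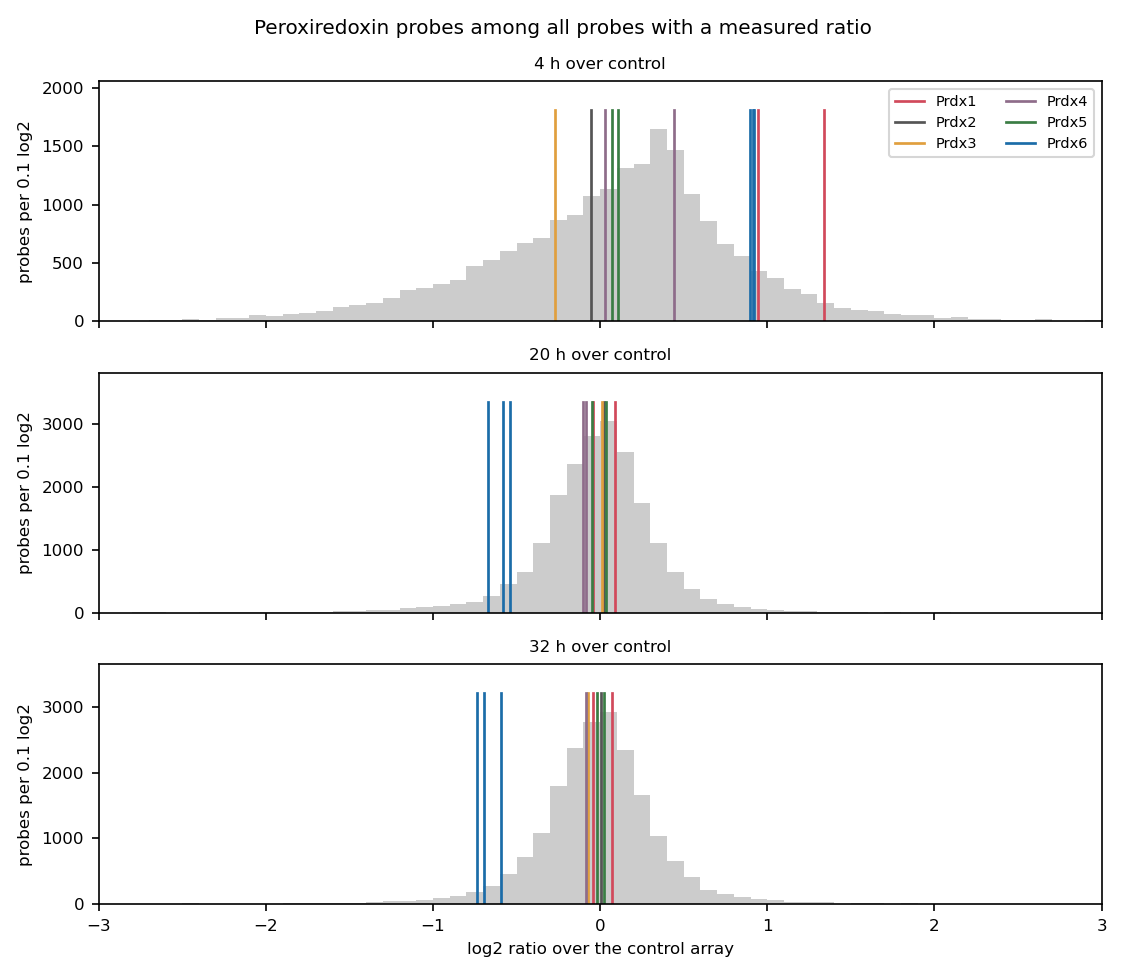
Number of probes per 0.1 step of the log2 ratio over the control array (grey) at 4 h, 20 h and 32 h, with the measured peroxiredoxin probes as colored lines. The Prdx1 and Prdx6 lines stand at the upper side at 4 h, and the Prdx6 lines alone stand apart at the lower side at 20 h and 32 h.

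The members fell into 4 patterns when each of the 3 ratios over the control was read as higher, lower or within the spot error. Both Prdx1 probes were higher at 4 h and within the error later, as were 21.2% of the 19697 probes measured on all arrays. The 3 bright Prdx6 probes were higher at 4 h and lower at 20 h and 32 h, as were 8.38% of the probes. Prdx2, the bright probe of Prdx4 and both probes of Prdx5 were within the error throughout, as were 11.6%. Prdx3 was lower at 4 h and within the error later, as were 12.1%. The comparison of 20 h with 32 h, times which the study set against each other for circadian change, gave log2 differences from -0.07 to 0.11 over the 10 member probes measured at both times. None reached 2-fold in either direction, against 0.902% higher at 20 h and 1.93% lower among all probes.

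Scaling bears on these directions, since the arrays differ most at 4 h. At 4 h the other scalings moved the median log2 ratio of all probes by -0.12 to -0.40. The smallest log2 ratios at 4 h over these scalings were 0.90 and 0.54 for the Prdx1 probes and 0.47 to 0.52 for the bright Prdx6 probes, so both genes stayed above the control under each. Prdx2 went down to -0.46 and Prdx3 to -0.67 under the same scalings. The brightest probes of Prdx4 and Prdx5 went to -0.38 and -0.34, so the place of Prdx2, Prdx4 and Prdx5 within the spot error at 4 h depends on the scaling. So does the place of the members at 20 h: of the 8 member probes within the error there, 7 lay above it without scaling, at 0.23 to 0.42, and 4 with spike-in scaling, the bright Prdx1 probe and probes of Prdx2, Prdx3 and Prdx5. At 20 h the scalings moved the median by -0.01 to 0.33, and the 3 bright Prdx6 probes stayed below the control, at -0.21 to -0.34 in the case nearest to 0. At 32 h the median moved by -0.0098 to 0.18, and that case was -0.42 to -0.56. The gaps between members within an array do not depend on a scaling by 1 constant per array. The log2 ratio of Prdx6 (brightest probe) at 4 h lay 0.95 ± 0.29 above that of Prdx2. The log2 ratio of Prdx1 lay above that of Prdx6 by 0.63 ± 0.29 at 20 h and by 0.66 ± 0.29 at 32 h.

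The other genes of the peroxiredoxin cycle were read from lists by the brightest probe of each gene. Of 13 genes that recycle or repair peroxiredoxins or bind thioredoxin, 3 were at least 2-fold higher at 4 h and 2 at least 2-fold lower, with a median log2 ratio of 0.19, beside 11.1% higher, 8.26% lower and a median of 0.22 over all 18506 genes with a ratio. Txnrd1, the cytosolic thioredoxin reductase that supplies Prdx1 and Prdx2, had signals of 15.1 in the control, 51.6 at 4 h, 12.2 at 20 h and 11.4 at 32 h. Srxn1, the sulfiredoxin that repairs overoxidized 2-Cys members, had 13.0, 41.2, 11.4 and 11.8. Both were above 3-fold at 4 h, at 3.41-fold and 3.18-fold, and at 20 h their log2 ratios were -0.31 and -0.19, which became 0.02 and 0.14 without scaling, while spike-in scaling turned Srxn1 to 0.01.

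The third gene that was higher was Sesn2, a stress-induced sestrin, at 4.43-fold. Its relative Sesn1 was lower, with a log2 ratio of -1.08, and so was Txnip, the protein that binds and blocks thioredoxin, at -2.01. Txn1, the cytosolic thioredoxin itself, was at 0.43 and Gstp1, the partner of Prdx6, at 0.26. Gsr, the glutathione reductase, was at 0.66. Glrx, a cytosolic glutaredoxin, was at -0.44 at 4 h and -0.99 at 20 h, and at 32 h it was the 1 gene of this list at least 2-fold lower.

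Of 7 other enzymes that remove peroxide, 6 had a ratio at 4 h, with a median log2 ratio of -0.19. None of these 6 passed 2-fold in either direction by its brightest probe. Over all genes, 11.1% were at least 2-fold higher, 8.26% were lower and the median was 0.22. Cat, the catalase of peroxisomes, had signals of 2.21 in the control, 3.28 at 4 h, 1.21 at 20 h and 1.26 at 32 h with its brightest probe. This is the order that the bright Prdx6 probes gave, with log2 ratios of 0.57, -0.86 and -0.81. The second Cat probe was at 1.16 at 4 h and at 0.01 at 20 h, so the 2 probes lie on either side of 2-fold at 4 h and disagree at 20 h. Gpx1, the main glutathione peroxidase of the cytosol, was at -0.12 at 4 h and 0.47 at 20 h. Gpx3, a secreted glutathione peroxidase, had no signal well above background on the 4 arrays.

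Of 11 targets of Nrf2, the transcription factor that responds to oxidants, 7 were at least 2-fold higher at 4 h and none lower. Among all genes, 11.1% were higher and 8.26% lower. The median was 1.67 for the list and 0.22 for all genes. The 7 became 6 under median, quantile and spike-in scaling and without scaling. Hmox1, heme oxygenase 1, reached 9.80-fold, and Gclc and Gclm, the subunits of the enzyme that starts glutathione synthesis, 3.70-fold and 3.21-fold. Slc7a11, the cystine carrier, was well above background at 4 h alone and at least 32.4-fold higher there. The 4 targets not past 2-fold at 4 h were Ftl1 at 0.49, Fth1 at 0.44, Nqo1 at 0.14 and G6pdx at -0.13 on the log2 scale. Nqo1 was thus within the spot error of 0.21 there, and the second Ftl1 probe was at 1.02. Prdx1, which is itself known as a target of Nrf2 and was not put on this list, lay below the median of the list with 1.34. At 20 h none of the 10 targets with a ratio was 2-fold higher or lower, against 1.46% and 3.56% of all genes, with a median of -0.11. At 32 h none was higher and 1 of 10 lower, Nqo1 at -1.04, against 2.24% and 2.77%. Spike-in scaling and no scaling raise every ratio at 32 h by 0.16 and 0.18, and each brings Nqo1 within 2-fold. This list also held Txnrd1 and Srxn1, already counted above.

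For the organelle members, the partners were split in the same way. Of 7 mitochondrial redox genes, which would sit beside Prdx3 and Prdx5, 1 was at least 2-fold higher at 4 h, Sod2, the mitochondrial superoxide dismutase that makes hydrogen peroxide, at 2.34-fold. That call was lost under 4 of the 5 other scalings. Txn2, the mitochondrial thioredoxin that reduces Prdx3, was at -0.01, and its reductase Txnrd2 at -0.64. Of 9 genes of oxidative folding in the endoplasmic reticulum, beside Prdx4, 1 was at least 2-fold higher, Ero1lb, an oxidase that produces peroxide, at 4.24-fold, and none was lower. That is 1 of 9 beside 11.1% of all genes. The median was 0.01 for the mitochondrial list and 0.53 for the folding list, beside 0.22 for all genes. Joined, the 5 lists held 40 genes, of which 39 had a ratio, and 10 were at least 2-fold higher and 2 at least 2-fold lower at 4 h, beside 11.1% and 8.26% of all genes.

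**Figure D4:**
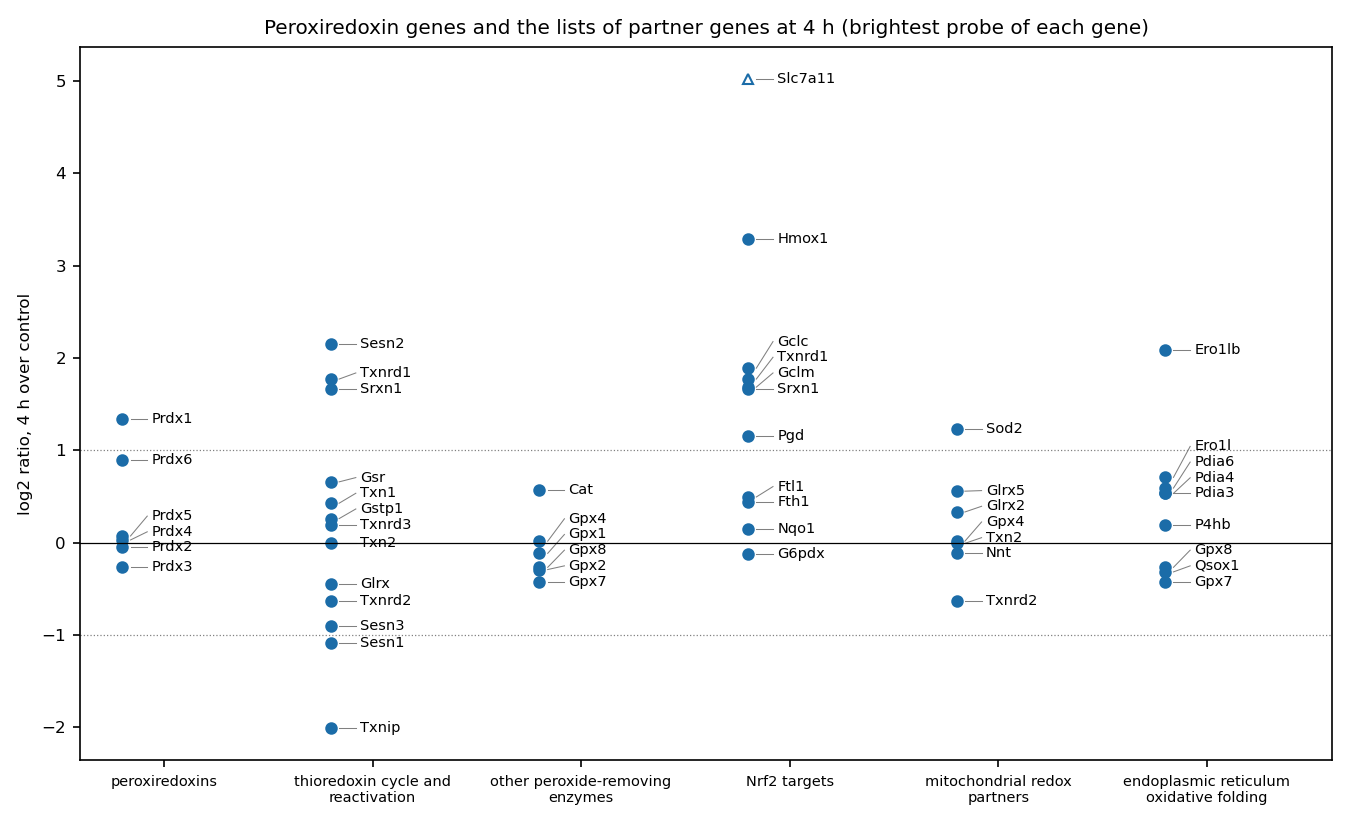
Log2 ratio at 4 h over the control for the 6 peroxiredoxin genes and the genes of the 5 lists, by the brightest probe of each gene; the open triangle is a bound and dotted lines mark 2-fold. Prdx1 stands above 2-fold beside Txnrd1, Srxn1 and most Nrf2 targets, while Prdx2 to Prdx5 stand between -0.27 and 0.07 and the other peroxide-removing enzymes between -0.42 and 0.57.

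The labelled cell type was checked with markers. All 8 fibroblast markers were well above background on all 4 arrays, but 7 of the 8 had a ratio below 0 at 4 h, with a median of -0.44, and Pdgfrb, a receptor of mesenchymal cells, was at -1.35. At 20 h, where Prdx6 was lower, 3 of the 8 were at least 2-fold lower, against 3.56% of all genes: the surface protein Thy1 at -1.39 and the collagens Col1a1 at -1.06 and Col3a1 at -1.02. Median scaling, spike-in scaling and no scaling raise every ratio at 20 h by 0.10, 0.20 and 0.33. Each of these brings the 2 collagens within 2-fold, while Thy1 stays past it. At 32 h none was 2-fold lower, with a median of -0.38. Their summed signal, carried mostly by the bright S100a4, Col1a2 and Vim, was 651 in the control, 567 at 4 h, 585 at 20 h and 596 at 32 h. Epcam and Cdh1 of epithelial cells and Ptprc of leukocytes had no signal well above background. Of 7 markers of other cell types, 4 were measured on some arrays, and 3 of these were at least 2-fold higher at 4 h, beside 11.1% of all genes. They were Krt8 at 2.25-fold, Cdh5 at 3.65-fold and Cd68, also a lysosomal gene in many cells, at 4.23-fold with its brightest probe. Cdh5 was dim, with a signal of 0.0575 in the control, and was not well above background at 32 h. From the control to 4 h the summed signal went from 0.559 to 1.23 for the epithelial list, from 0.141 to 0.346 for the endothelial list and from 0.406 to 1.69 for the leukocyte list. Such sums compare arrays for 1 list and give no share of cells. The part of these markers' changes in the Prdx values was not tested. The arrays had 52.7% to 59.1% of all probes well above background, highest at 4 h.

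The promoter is shown because Prdx1 was the 2-Cys gene at least 2-fold above the control at 4 h by its brightest probe. Under median, quantile and spike-in scaling its log2 ratio was below that level, at 0.98, 0.90 and 0.93. A role of Nrf2 in the Prdx1 values was not tested. RefSeq promoter sequences, from 250 bases before to 50 bases after the start of each gene, were found for 5 of the 6 members, all but Prdx6. Below are the 250 bases before the Prdx1 start on build GRCm38.p6 (chr4:116685349-116685598, plus strand). The capitals mark the AP-1 letters TGACTCA and the stretch where these letters on the minus strand overlap the antioxidant response letters TGACNNNGC, the sequence to which Nrf2 binds, also on the minus strand.
Prdx1 promoter: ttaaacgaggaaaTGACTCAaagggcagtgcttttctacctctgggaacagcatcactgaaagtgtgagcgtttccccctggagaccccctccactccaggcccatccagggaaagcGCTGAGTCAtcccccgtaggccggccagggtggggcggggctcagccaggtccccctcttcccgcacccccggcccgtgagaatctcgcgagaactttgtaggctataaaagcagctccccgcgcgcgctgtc

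Both strands of the 5 promoters were searched for 5 sets of letters. TGACNNNGC was found in Prdx1 alone, with its first base at -133 from the start, and 12.4% of 32851 promoters of the same length hold it. TGACTCA was likewise found in Prdx1 alone, at -237 and at -131, where it shares bases with the match of TGACNNNGC, and 5.2% of promoters hold it. The heat shock letters GAANNTTC were found in Prdx3 at -180 (7.86% of promoters) and the E-box CACGTG, which clock factors and others bind, in Prdx4 at -52 (7.15%). The GC box GGGCGG was found in 5 of 5, against 35.7% of all promoters. Such matches describe letters and do not show that a factor is bound.

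The genes whose ratios were most like those of Prdx1 and Prdx6 were found among 11054 genes with a brightest probe detected on all arrays, by the root mean square difference of the 3 log2 ratios over the control. These 3 ratios share the control array. Nearest to Prdx1 were 5330439K02Rik, Esf1, Smcr8, Top1 and Spty2d1, with differences of 0.025 to 0.045. Top1, the DNA topoisomerase I, had log2 ratios of 1.37, 0.10 and 0.0039 at 4 h, 20 h and 32 h. In all, 266 genes (2.41%) lay within 0.2 of Prdx1 and 114 (1.03%) within 0.2 of Prdx6. Nearest to Prdx6 were D10Wsu102e, Pdlim7, 1700048M11Rik, Hspa9 and Nsun2, with differences of 0.042 to 0.057. Hspa9, the heat shock protein of the mitochondrial matrix, had log2 ratios of 0.89, -0.53 and -0.51. None of the 10 genes was on the lists of peroxide-removing or redox genes.

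**Figure D5:**
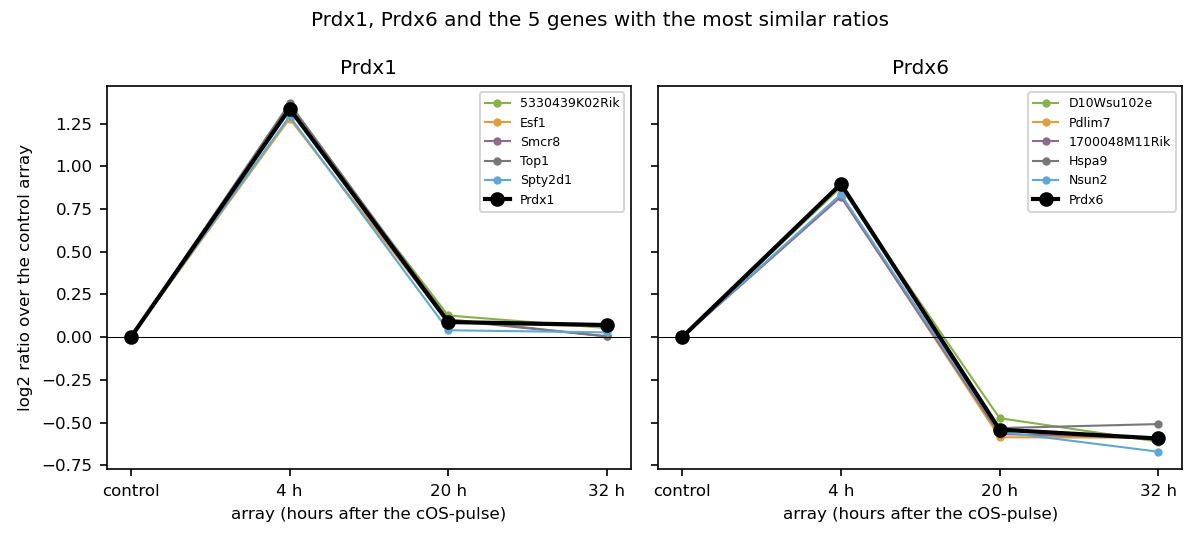
Log2 ratio over the control array at 4 h, 20 h and 32 h for Prdx1 (left) and Prdx6 (right) in black and the 5 genes with the smallest difference from each in color; the control is 0. The genes were chosen by these same ratios, so their likeness follows from the choice. The Prdx1 group returns to near 0 at 20 h and 32 h, and the Prdx6 group lies between -0.47 and -0.67 there.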

How the data were processed

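The authors deposited, for each of the 4 arrays, spot intensity values from Agilent Feature Extraction 10.7.3.1 (version per the file headers), with background subtracted and spatial trend removed and surrogate values for spots near background, and a second table in which every intensity of an array is that value over 1 constant. The log2 processed intensity was averaged over the spots of a probe without outlier flags (125 to 161 spots per array were left out, 0 were saturated), and the array's 75th percentile over all probes was subtracted. Detection of a probe required the flag for well above background on at least 50% of its spots. Where 1 array of a pair detected it, the ratio is a bound against the higher of the other array's lowest detected signal and the probe's own signal there. Such a bound is written as at least N-fold. The limit of 2-fold follows the study. Groups came from the sample titles. Replicate arrays were absent, so no test was run. A gene was represented by its probe with the highest mean log2 signal. Beside all member probes and list genes, the 5 genes nearest in pattern to Prdx1 and to Prdx6 were named, leaving out probes with no gene symbol. The members and lists were chosen with earlier results of these data known. The alternatives were 5 other scalings (median, quantile, 75th percentile of probes detected on all arrays, the 8 spike-in probes detected on all arrays, none), background correction by normexp, offset 50 (limma 3.58.1, R 4.3.3), other detection rules, flagged spots kept, a 1.5-fold limit, the median over a gene's detected probes and the deposited table, while spike-in scaling without 1 probe, the 1.5-fold limit under each scaling and the scalings of Txnrd1 and Srxn1 were added after seeing the data. The steps were tested on simulated data. Calculations used Python 3.11.15, numpy 2.4.6 and pandas 2.3.3. The columns of the deposited files hold no comparisons by the authors.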

Additional observations from a re-analysis of the deposited data

Results flagged for a closer look

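The 3 bright Prdx6 probes moved in opposite directions at 2 time points, above the control at 4 h and below it at 32 h, both by more than the spot error. The log2 ratio at 4 h minus that at 32 h was 1.65 for A_55_P2176731, 1.61 for A_55_P2176729 and 1.49 for A_55_P2103561. With 1 array per time point this difference was not tested, and the 3 probes read the same RNA.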

How the results depend on the processing

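The count of member probes at least 2-fold higher at 4 h, which was 2, fell to 1 under scaling by the median, by quantiles or by the spike-in probes (all 8, or without 1), under normexp background correction and when detection on both arrays was required, and it was 6 at a limit of 1.5-fold (2 to 6 over the other scalings, with 0 or 1 lower, combinations added after seeing the data). Under the median, quantile and spike-in scalings the Prdx1 probe A_55_P2147427 went below 2-fold, at 0.98, 0.90 and 0.93, and the Prdx6 probe A_52_P388359 remained. Under normexp that Prdx6 probe had a bound of 0.88. Without a detection filter or with the flag for positive and significant signals, 1 member probe, the same Prdx6 probe, was past 2-fold between 20 h and 32 h in place of 0. The counts of 0 at 20 h and 32 h over the control were the same under all alternatives run. The count over the gene lists was 10, and it lay between 8 and 13. Of 737 values for single probes, genes and lists under an alternative, 630 moved by less than a limit, and the rest moved by more. The limit was the spot error for a probe, a fixed log2 value for a gene and 1.5 times for a count. Among values past 2-fold, 0 changed sign, while smaller values did, such as those of Prdx4 and Prdx5 probes at 4 h. No paired analysis was possible because each condition has 1 array, so the groups share fewer than 2 replicate numbers. Signal over background limits A_52_P388359 and A_55_P2058340, the first well above background at 4 h alone and the second on all arrays but that of 32 h.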
